A study of Mus musculus with 8 samples.

Results

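The small proline-rich (Sprr) and late cornified envelope (Lce) genes encode building blocks of the tough protein shell of dead skin cells. They were followed here with Lor, Ivl, Kprp and Lelp1, further structural genes of that shell or of the same stretch of chromosome, in mouse ear skin after topical MC903. Members were all genes with a mouse symbol starting with Sprr or Lce and a digit, plus these named genes, without pseudogenes. The rule found 38 rows of the 41388 in the deposited tables. They were 14 Sprr rows (Sprr1a, Sprr1b, 10 Sprr2 genes, Sprr3 and Sprr4), 20 Lce rows (13 Lce1, 6 Lce3 and Lce6a) and the other 4. Each of them lies on chromosome 3, between positions 92080271 and 93019060 of mm10, the region known as the epidermal differentiation complex. Sprr2g and Sprr2j-ps, which carry a pseudogene annotation in RefSeq, were left out.

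As keratinocytes move up through the epidermis they stop dividing and assemble the cornified envelope beneath the cell membrane. Transglutaminases crosslink its proteins. Involucrin (Ivl) is laid down early as a scaffold, loricrin (Lor) is the main bulk protein of normal epidermis, and the small proline-rich proteins act as flexible bridges between other envelope proteins. The late cornified envelope proteins are small, cysteine-rich and glycine-rich, and are added late. In human skin, the LCE1 genes are known mainly from normal skin and the LCE3 genes from wounded or psoriatic skin. Sprr1 and Sprr2 genes are known to rise in stressed, wounded and inflamed epithelia, and in mice lacking loricrin.

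RNA of the whole ear was sequenced from adult C57Bl/6 mice of wild-type genotype, 4 treated with ethanol as the vehicle and 4 with MC903, or calcipotriol. This vitamin D analog was put on the ear topically at 1 nmol per day over 12 days, a treatment known to give itchy, dermatitis-like skin. No sex was given in the labels. Library totals were 12310466 to 16837221 counts, and a count of 3, taken as the detection floor, was 0.178 to 0.244 CPM, a count scaled by the library's total. Replicates are libraries numbered in the labels. P-values measure the spread between these 8 libraries only.

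Vehicle replicate 2 stood apart. In that library Bpifa2, a secretory transcript of the salivary glands, held 24.5% of the counts. The 4 salivary markers summed to 53126 CPM there, against 33.7 to 55.4 CPM in the MC903 libraries. It had the lowest CPM of the vehicle group in 11 of the 13 Lce1 rows. Bpifa2 was present in the other 7 libraries at a median of 0.0558% of its count in that library, a rate used below for an alternative that subtracts reads of other libraries. Whether reads did cross between libraries was not tested. The samples were whole tissue, in which fewer cells of a type and less RNA per cell cannot be told apart.

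Epidermal and other markers moved with the treatment too. Krt14, the basal keratin, was 1939 ± 257 CPM (mean ± SD, n = 4 per group, as below) with vehicle and 7077 ± 828 CPM with MC903, and Krt1, the suprabasal keratin, 202 ± 50.0 and 1848 ± 362 CPM. Krt5 and Krt10, their usual partners, were not called, at log2 fold changes of 0.34 ± 0.16 and -0.27 ± 0.27 (SE). Of the other basal markers, Col17a1, a hemidesmosome collagen, was lower (-0.48 ± 0.15), and Itga6 was not called (0.11 ± 0.17). The basal list summed to 3617 to 4147 CPM with vehicle and 8412 to 10088 CPM with MC903. The suprabasal list summed to 2702 to 3565 CPM with vehicle and 2736 to 5339 CPM with MC903, ranges that overlap. Of its other members, Dsc1 was higher (1.71 ± 0.14) and Dsg1a was not called (-0.59 ± 0.28). The 4 granular layer markers, from the layer that makes the envelope, summed to 1138 to 1473 and 4272 to 5161 CPM, with Flg, Cdsn and Casp14 higher and Flg2 lower. Of 9 tested markers of hair cortex and inner root sheath, 7 fell and Tchh rose (4.44 ± 0.54). The summed level of the 12 listed was 34.9 to 232 CPM with vehicle and 367 to 892 CPM with MC903, most of the latter from Tchh. Sebaceous markers summed to 4574 to 9185 CPM with vehicle and 2498 to 5051 CPM with MC903 (2 of 4 lower), and muscle markers to 2649 to 8054 and 1289 to 4525 CPM (2 of 4 lower). Cartilage markers (2 of 2 tested lower) summed to 133 to 174 and 50.7 to 69.8 CPM. Krt4, Krt13 and Krt76, keratins of oral and forestomach epithelium, summed to 3.24 to 5.30 CPM with vehicle and 2.92 to 4.79 CPM with MC903. The part of these shifts in the values of the envelope genes was not tested.

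Close relatives in these families share sequence, and reads of 50 bases from a shared stretch could belong to either gene. The sources used here do not say how such reads were counted. The stretch of coding sequence identical between Lce3d and Lce3f and that between Sprr2d and Sprr2i show the scale of the problem, and the longest run shared by Sprr1a and Sprr1b shows a pair that reads can tell apart. All are written 5′ to 3′ from the GENCODE M21 transcripts, and positions count from the first base of the start codon.
Lce3d and Lce3f, coding bases 149 to 294 of each: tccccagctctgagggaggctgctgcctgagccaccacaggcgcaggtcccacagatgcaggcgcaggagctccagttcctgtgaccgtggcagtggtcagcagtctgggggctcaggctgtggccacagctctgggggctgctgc
Sprr2d and Sprr2i, coding bases 13 to 88 of each: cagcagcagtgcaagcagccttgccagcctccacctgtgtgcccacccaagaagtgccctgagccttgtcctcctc
Sprr1a and Sprr1b, coding bases 13 to 32 of each: cagcagaagcagccctgcac
The first run of letters covers 146 bases and reaches the last codon of both Lce3 genes, and the Sprr2 run covers 76 bases. Of all 50-base stretches in a transcript, 100% were unique to the gene for Sprr1a, Sprr1b, Sprr2h, Sprr2k, Lce1m, Lce6a, Lor and Kprp. The share was 99.3% for Sprr2f and 95.7% for Sprr2d. It was 72.9% to 100% over the Lce1 transcripts, with a median of 78.3%, and 50.7% (Lce3d) to 87.9% (Lce3b) over the Lce3 transcripts. Sprr2a1 and Sprr2a2 were at 3.72% and 3.55%, so their rows say little about either gene. The deposited Lce1a2 row has 4 exons that cover 2 genes, Lce1a2 and Lce1d, and the deposited length of Sprr4 is its coding part only.

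Of the 38 rows, 26 rose and 1 fell in MC903 skin by edgeR's quasi-likelihood test with Benjamini-Hochberg adjustment over the 16105 genes tested. Over all genes tested, 41.5% were called, of which 21.3% of all rose and 20.2% fell. A further 8 were tested and not called, and 3 had too few counts to test. Of the 35 members tested, 4 (Sprr2a2, Sprr2b, Sprr2k and Lce3b) passed the filter on low counts only through the MC903 libraries, which selects for a rise. Of the other 31, 22 rose. Among the 35 tested members, 26 had all 4 values in MC903 skin above the 4 vehicle values, against 19.8% of all genes tested. These 26 include the 4 that passed the filter only through the MC903 libraries. Lce1m alone had all 4 below, against 18.9%. Rises of at least 16-fold were fitted for 16 members, and for 12 without those 4, against 0.832% of all genes. Without vehicle replicate 2, 27 members rose and 1 fell, because Sprr2a1 then passed the filter. Sprr2a1 also passed and was called higher without vehicle replicate 1, 3 or 4, or without MC903 replicate 1.

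**Figure D1:**
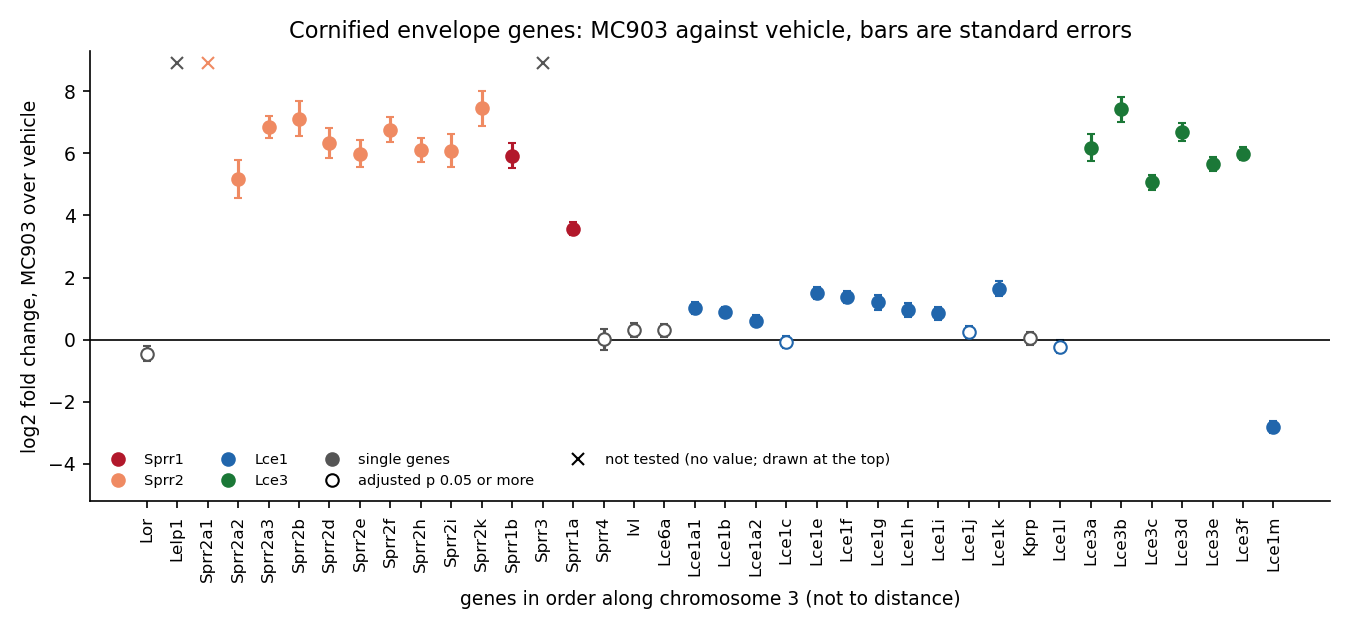
Log2 fold change of MC903 over vehicle (y axis, with its standard error) for the 38 gene rows in their order along chromosome 3 (x axis, not to distance). Filled circles have an adjusted p under 0.05, open circles do not, and crosses mark the 3 rows not tested. The Sprr2 block and the Lce3 block sit between 5.06 and 7.45, the Lce1 genes between -2.81 and 1.64, and the single genes between -0.46 and 0.31.

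The families differed in the size of their change. The 9 Sprr2 rows tested all rose, by log2 fold changes of 5.18 to 7.45 (median 6.33, and 6.22 over the 6 rows that passed the filter in both groups). The 6 Lce3 genes rose by 5.06 to 7.41 (median 6.08, and 5.99 over 5 genes likewise). Sprr1a rose by 3.56 and Sprr1b by 5.93. Of the 13 Lce1 rows, 9 rose, by 0.61 to 1.64, 3 were not called and 1 fell. Their median was 0.88, beside -0.03 over all genes tested. None of the 5 tested single genes (Lor, Ivl, Kprp, Lce6a and Sprr4) was called at an adjusted p under 0.05.

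Sprr1a (chr3:92483952-92485895), which encodes a crosslinked bridge protein also known from injured tissues, was at 137, 124, 125 and 200 CPM in vehicle replicates 1 to 4 and at 1690, 1776, 1702 and 1757 CPM in MC903 replicates 1 to 4. The 4 MC903 values lay within 1.05-fold of each other and far above the vehicle values. The log2 fold change was 3.56 ± 0.21 (adjusted p = 6.61e-07). Sprr1b (chr3:92436809-92438779), the other Sprr1 gene, was at 17.3, 20.6, 8.57 and 6.31 CPM with vehicle and 729, 1016, 882 and 575 CPM with MC903. It rose from a lower level and by more, 5.93 ± 0.41 (adjusted p = 2.12e-06). Sprr1b held 3.05% to 14.2% of the Sprr1 counts in the vehicle libraries and 24.7% to 36.4% in the MC903 libraries, so the ranges of its share did not overlap.

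Sprr2d (chr3:92339140-92340873) had the highest mean CPM of the Sprr2 rows in each group. Its vehicle values were 13.6, 20.1, 12.1 and 18.0 CPM, and its MC903 values 2212, 1246, 1246 and 437 CPM. Sprr2h was above it in vehicle replicate 1 (19.6 CPM), and Sprr2a3 and Sprr2h were in MC903 replicate 4 (561 and 501 CPM). The rise of Sprr2d was 6.33 ± 0.48 on the log2 scale (adjusted p = 3.53e-06), and MC903 replicate 4 was well under the other 3. Sprr2a3 (chr3:92288569-92289251), for which 52.6% of 50-base stretches were unique, went from 10.2, 6.92, 7.94 and 6.25 CPM to 1379, 958, 704 and 561 CPM (6.84 ± 0.35, adjusted p = 2.30e-07). Sprr2f (chr3:92365187-92366442) went from 1.47, 1.92, 0.857 and 2.44 CPM to 261, 185, 183 and 92.5 CPM (6.76 ± 0.39, adjusted p = 5.48e-07). In these 3 genes, picked for high mean CPM or small p, every MC903 library was above every vehicle library. The same held for 19.8% of all genes tested. Sprr2h, whose sequence is unique to it, rose by 6.11 ± 0.39 from 12.3 ± 5.17 to 848 ± 306 CPM, so the rise was present in a gene with no 50-base stretch in common with another.

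Of the other Sprr2 rows, Sprr2b, Sprr2e and Sprr2i had means of 1.47 to 5.39 CPM with vehicle and 199 to 367 CPM with MC903. Sprr2k had 2 counts in the vehicle group and 383 in the MC903 group, a ratio of 224 (95% exact interval 61.6 to 1858, counting error only). Sprr2a2 had 2 and 77 counts, a ratio of 45.1 (12.1 to 379), and Sprr2a1, not tested, 2 and 60, a ratio of 35.1 (9.31 to 297). These 3 rows lay at or below 2 counts in any vehicle library, and a fold change fitted to them rests on the prior count.

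Lce3c (chr3:92944486-92945730) was the most abundant Lce3 gene in both groups, at 15.6, 11.8, 8.57 and 10.9 CPM with vehicle and 523, 360, 387 and 293 CPM with MC903. It had the smallest log2 rise of its family, 5.06 ± 0.25 (adjusted p = 2.11e-07). Lce3d (chr3:92957390-92958505) went from 1.94, 3.23, 1.66 and 1.31 CPM to 278, 199, 204 and 148 CPM (6.69 ± 0.30, adjusted p = 1.13e-07). Lce3f (chr3:92992226-92993425) went from 2.06, 1.998, 1.09 and 1.19 CPM to 107, 99.8, 86.2 and 107 CPM (5.99 ± 0.21, adjusted p = 3.44e-08), the smallest p among the members. Lce3e (chr3:92967061-92968281) went from 1.89, 1.23, 1.14 and 1.25 CPM to 92.2, 56.3, 58.1 and 73.5 CPM (5.65 ± 0.23, adjusted p = 6.30e-08). These 4 were picked for high mean CPM or small p, and their groups did not overlap. Of all genes tested, 19.8% had every MC903 value above every vehicle value. Lce3a rose by 6.18 ± 0.43, and Lce3b, with 17 vehicle and 2618 MC903 counts in all, had a ratio of 180 (112 to 310). Lce3c held 55.8% to 65.9% of the family's counts in the vehicle libraries and 38.7% to 42.8% in the MC903 libraries. Lce3d held 7.88% to 15.2% and 20.1% to 22.7%. Because Lce3d, Lce3e and Lce3f share much of their sequence, this division depends on how shared reads were counted. When reads were subtracted at the crossing rate, a setting added once the data had been seen, Lce3d was at 6.99 and Sprr2a3 at 7.21 on the log2 scale.

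**Figure D2:**
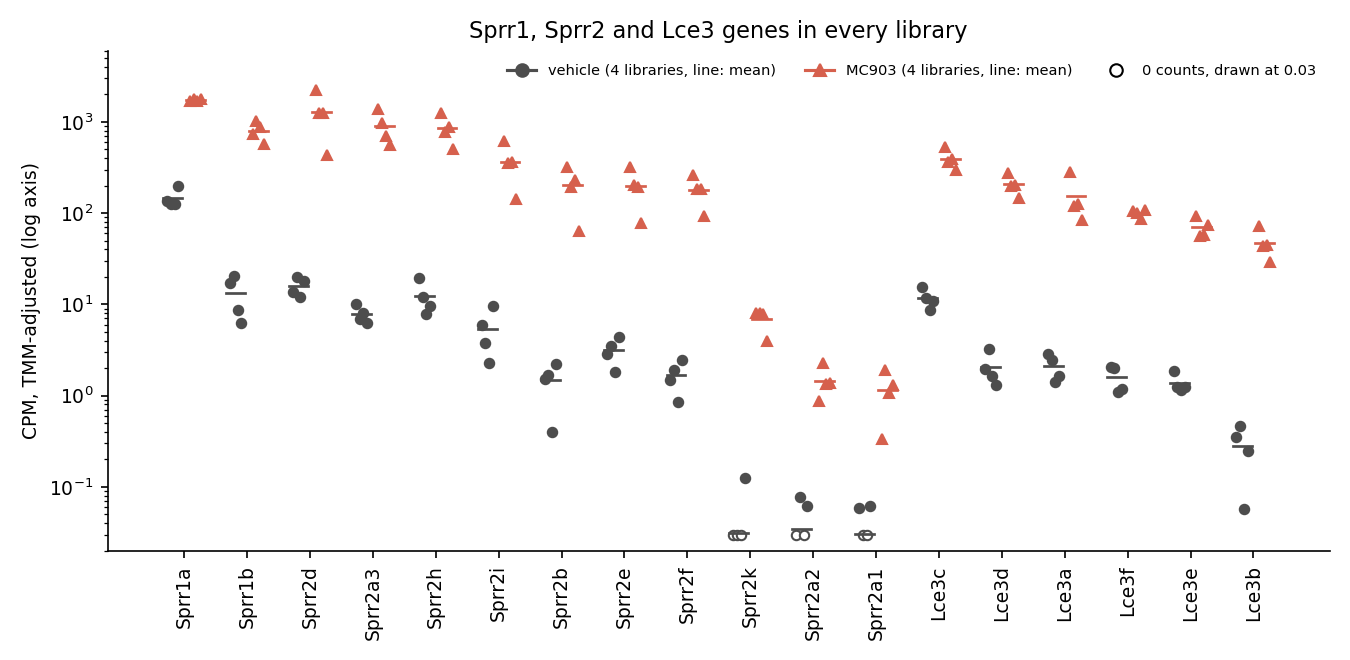
CPM (TMM-adjusted, log axis) of the Sprr1, Sprr2 and Lce3 genes in each of the 4 vehicle libraries (dark circles) and 4 MC903 libraries (red triangles), with the group mean as a line. Libraries with 0 counts are drawn as open symbols at 0.03. The groups are apart in each gene drawn, and Sprr1a is the tightest of the MC903 groups, at 1690 to 1776 CPM.

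Lce1 genes were already abundant in vehicle skin and changed little by comparison. Lce1c (chr3:92679247-92680918) was at 826, 568, 678 and 695 CPM with vehicle and 838, 666, 568 and 549 CPM with MC903, with overlapping groups. Its log2 fold change was -0.08 ± 0.19 (adjusted p = 0.766), and its sign turned without vehicle replicate 1 or MC903 replicate 4. The Lce1a2 row was at 701, 703, 684 and 679 CPM with vehicle and 1361, 1065, 982 and 821 CPM with MC903. It was called higher (0.61 ± 0.18, adjusted p = 0.0192), but not when library sizes alone were used (0.53, adjusted p = 0.1004). Lce1e (chr3:92707401-92709074) had the smallest p among the Lce1 genes that rose, at 203, 150, 177 and 183 CPM with vehicle and 689, 462, 445 and 431 CPM with MC903 (1.51 ± 0.19, adjusted p = 1.02e-04).

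Lce1m (chr3:93017807-93019060) went the other way. It was at 370, 366, 334 and 376 CPM with vehicle and 41.0, 71.4, 55.1 and 38.5 CPM with MC903, a log2 fold change of -2.81 ± 0.20 (adjusted p = 2.60e-06). The vehicle values were close together, and the highest MC903 value was far below the lowest of them. It is the outermost row of the cluster and the Lce1 gene set apart by position, beyond the Lce3 genes. Its transcript shares no 50-base stretch with any other, and its identity with its nearest Lce1 relative, Lce1g, was 59.4%, the lowest in the family, where others reached up to 90.2%. Of the Lce1 counts, Lce1m held 8.72% to 11.3% in the vehicle libraries and 0.547% to 1.32% in the MC903 libraries. Lce1c held 17.5% to 19.5% and 11.2% to 12.4%, and Lce1e 4.64% to 4.97% and 8.51% to 9.72%. None of these ranges overlapped between groups.

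The other Lce1 rows lay between these. Lce1k rose most, by 1.64 ± 0.25 from 39.5 ± 8.65 to 123 ± 45.8 CPM, followed by Lce1f (1.37 ± 0.21), Lce1g (1.21 ± 0.24) and Lce1a1 (1.02 ± 0.18). Lce1h, Lce1b and Lce1i rose by 0.95, 0.88 and 0.85. Lce1j was at 209 ± 38.9 and 249 ± 64.1 CPM and Lce1l at 207 ± 34.8 and 177 ± 45.4 CPM, with log2 fold changes of 0.25 ± 0.20 and -0.23 ± 0.20 that did not pass the test. Along the chromosome, rows that rose and rows that did not stood side by side (Lce1a2, Lce1c and Lce1e, for example).

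**Figure D3:**
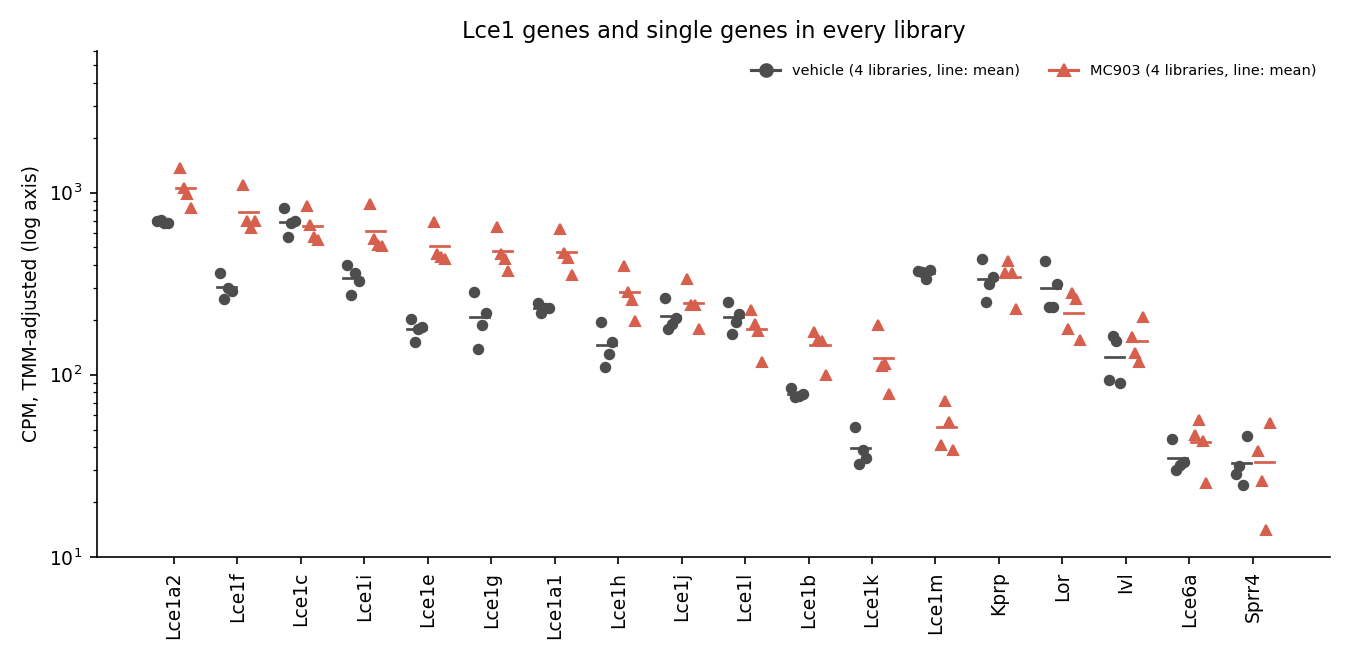
CPM (TMM-adjusted, log axis) of the 13 Lce1 rows and 5 single genes in each of the 4 vehicle libraries (dark circles) and 4 MC903 libraries (red triangles), with the group mean as a line. Lce1m drops from 334 to 376 CPM in vehicle to 38.5 to 71.4 CPM in MC903 skin, while the 5 single genes at the right overlap between groups.

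The classical envelope proteins showed no called change. Lor (chr3:92080271-92083142) was at 418, 236, 235 and 313 CPM with vehicle and 179, 280, 261 and 155 CPM with MC903 (-0.46 ± 0.24, adjusted p = 0.148). Ivl (chr3:92570912-92573715) was at 93.1, 163, 153 and 89.8 CPM with vehicle and 161, 131, 117 and 207 CPM with MC903 (0.31 ± 0.24, adjusted p = 0.319). The groups overlapped in both genes, and each fold change kept its sign in the 19 alternatives, at -0.59 to -0.26 for Lor and 0.13 to 0.45 for Ivl. Kprp (chr3:92823074-92827247), which encodes a proline-rich keratinocyte protein, was at 430, 251, 313 and 342 CPM and 362, 421, 360 and 229 CPM (0.04 ± 0.22, adjusted p = 0.902). Lce6a (chr3:92620081-92621660) was at 44.2, 30.0, 32.0 and 33.4 CPM and 46.6, 56.3, 43.4 and 25.4 CPM (0.30 ± 0.22, adjusted p = 0.293), and was called higher without MC903 replicate 4 (0.48, adjusted p = 0.0350). Sprr4 (chr3:92500263-92500493) was at 28.5, 31.7, 25.0 and 46.2 CPM and 37.9, 26.2, 14.1 and 54.4 CPM (0.01 ± 0.34, adjusted p = 0.980), with the widest MC903 spread of the single genes. For Kprp and Sprr4 the sign of the fold change turned under some alternatives. A missed threshold does not show that these genes were at equal levels.

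Sprr3, known from oesophagus and other internal lining epithelia, had 0 counts in all 8 libraries. This lies under the detection floor of 0.178 to 0.244 CPM, scaled by library totals alone, and does not show absence. Lelp1, a late cornified envelope-like proline-rich gene, had 3 counts over the vehicle and 2 over the MC903 libraries, both at or under the floor. Of the pseudogenes left out, Sprr2g was at 1.88 ± 0.682 CPM with vehicle and 153 ± 42.8 CPM with MC903 (6.36 ± 0.33), and Sprr2j-ps at 0.274 ± 0.186 and 14.9 ± 6.24 CPM (5.69 ± 0.45), inside the range of the Sprr2 members.

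The make-up of the envelope transcripts differed between the groups. The 38 rows together held 0.322% to 0.616% of all counts in the vehicle libraries and 0.988% to 1.75% in the MC903 libraries. The lowest vehicle share was that of replicate 2, and the others were at 0.502% or more. In vehicle skin Lce1 rows made up 77.0% to 79.3% of these counts, and Sprr1, Sprr2 and Lce3 together 3.98% to 5.76%. In MC903 skin Lce1 rows made up 38.3% to 44.1%, and Sprr1, Sprr2 and Lce3 together 49.2% to 55.6%. The summed Sprr2 level went from 47.8 ± 9.93 to 3991 ± 1834 CPM, an 83.5-fold difference of means, and the summed Lce3 level from 19.1 ± 4.80 to 967 ± 267 CPM (50.7-fold). Summed Sprr1 went from 160 ± 32.5 to 2531 ± 202 CPM (15.8-fold), and summed Lce1 from 3688 ± 412 to 5595 ± 1332 CPM (1.52-fold). Sums depend less on the division of shared reads within a family. An alternative fit held 1 summed row for each of the Sprr2, Lce1 and Lce3 families, and its results for these rows are not given here.

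**Figure D4:**
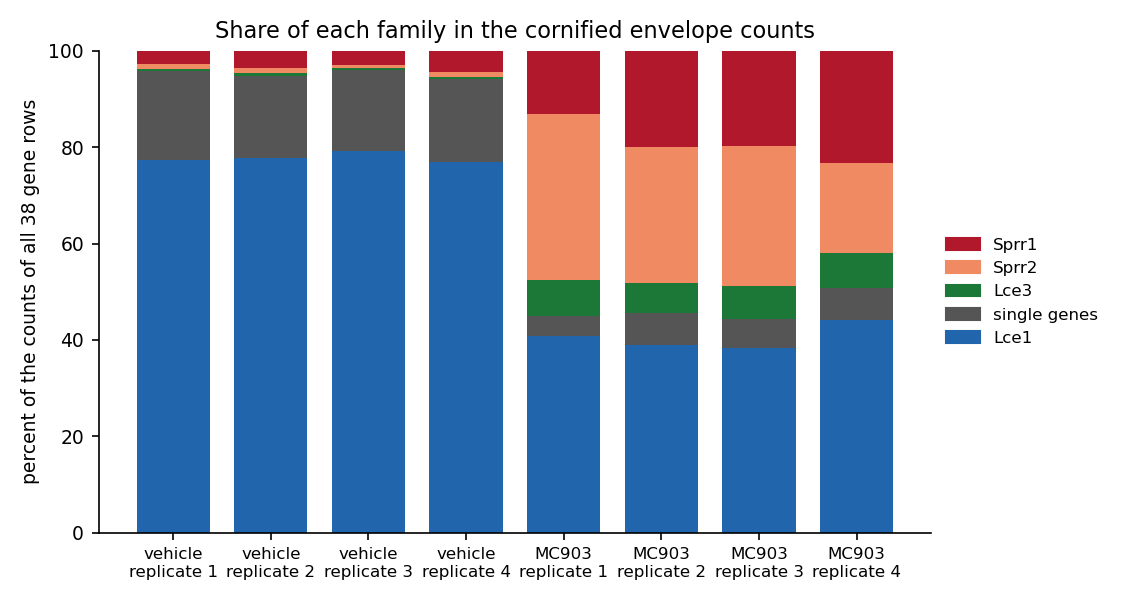
Percent of the counts of the 38 gene rows (y axis) taken by each family in each library (x axis). Lce1 rows take 77.0% to 79.3% in the vehicle libraries and 38.3% to 44.1% in the MC903 libraries, where Sprr2 takes 18.7% to 34.5% and Sprr1 13.1% to 23.2%.

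Levels per kilobase of the deposited gene length (RPKM, from TMM-adjusted CPM) adjust for unlike gene lengths. The ranks still depend on how shared reads were counted, and the Lce1a2 row pools Lce1a2 and Lce1d. In vehicle skin the order began with Lce1c at 956 ± 146 RPKM, the Lce1a2 row at 497 ± 8.55, Lce1i at 466 ± 73.4, Lce1f at 416 ± 58.1 and Lce1m at 412 ± 21.7. After Lce1c, these neighbours differed by less than their spread. Sprr1a was at 182 ± 45.1 RPKM, Lor at 169 ± 48.7 and Ivl at 65.9 ± 20.4, and each Sprr2 and Lce3 gene was at or under the 23.4 RPKM of Sprr2d. In MC903 skin the order began with Sprr1a at 2148 ± 51.6 RPKM, Sprr2d at 1887 ± 1066, Sprr2a3 at 1318 ± 525, Sprr2h at 1127 ± 407 and Lce1f at 1077 ± 297. No neighbours among these 5 differed beyond their spread. Lce1m was at 58.7 ± 17.3 RPKM and moved from rank 5 to rank 32 of the 38 rows. Lor moved from rank 13 to rank 28 without a called change in its own level.

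The MC903 libraries were not alike, and their order was largely shared within the Sprr2, Lce3 and Lce1 families. MC903 replicate 1 had the highest CPM in 8 of the 9 tested Sprr2 rows, 5 of 6 Lce3 genes and 12 of 13 Lce1 rows. MC903 replicate 4 had the lowest in 8, 4 and 12 of them. A shared order was not particular to MC903 skin. Vehicle replicate 1 had the highest CPM of its group in 11 of 13 Lce1 rows and 4 of 6 Lce3 genes. Vehicle replicate 3 had the lowest in 6 of 9 tested Sprr2 rows and 5 of 6 Lce3 genes. In the Sprr2 rows the highest MC903 library was 2.04 to 5.11 times the lowest, with a median of 2.82, against 1.75 for Lce1 and 1.83 for Lce3. Summed Sprr2 was 6357, 3930, 3797 and 1881 CPM in MC903 replicates 1 to 4, while summed Sprr1 was 2418, 2791, 2584 and 2331 CPM. Some other cornification genes had the same order, such as Cnfn, a cornified envelope protein, at 1809, 1174, 1162 and 869 CPM and Krtdap, a keratinocyte differentiation gene, at 8759, 7327, 6927 and 5008 CPM. MC903 replicate 1 was highest and MC903 replicate 4 lowest in 8 of the 55 other cornification genes tested and in 23 of the 35 members tested. The share over all genes tested is not given here. Keratins had other orders. Krt14 was at 8065, 6408, 6378 and 7456 CPM and Krt1 at 1525, 2366, 1744 and 1756 CPM, while Krt10 was lowest in MC903 replicate 1, at 967 CPM against 2175 to 2371 CPM in the others. Without MC903 replicate 1 or 4, the log2 ratio of summed Sprr2 levels was 6.07 or 6.62, against 6.38 with both.

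**Figure D5:**
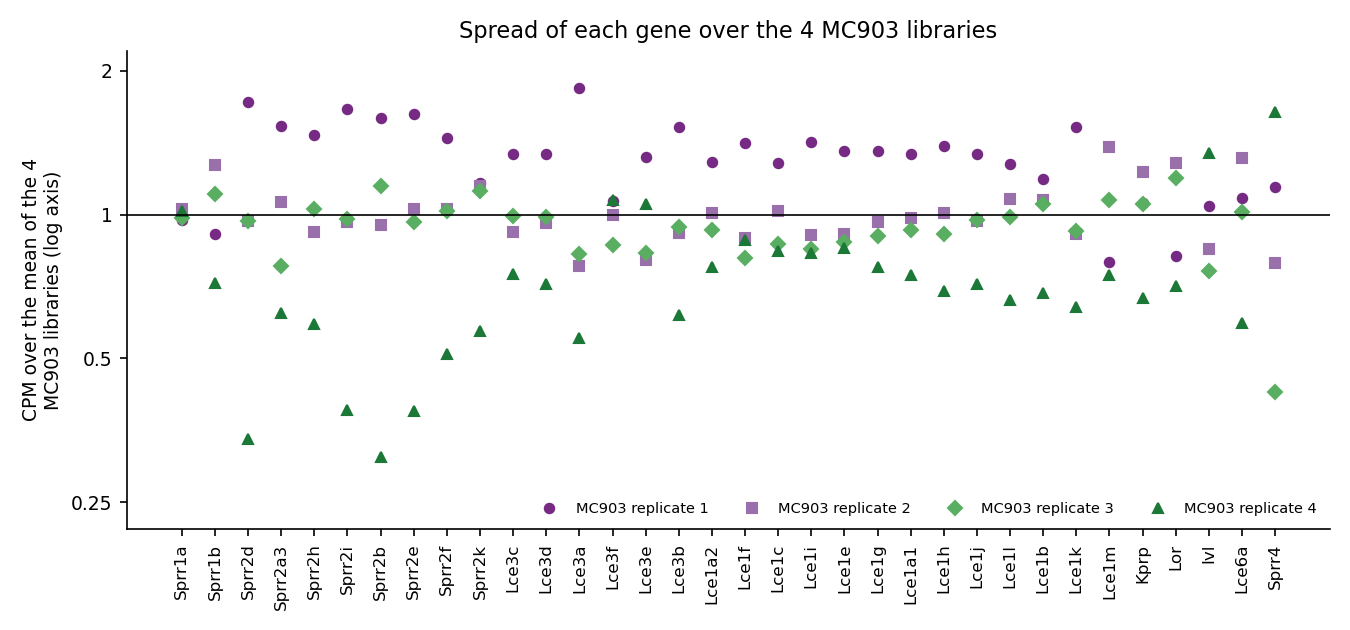
CPM of each gene in each MC903 library divided by the mean of the 4 MC903 libraries (y axis, log axis), for genes with a mean above 2 CPM in MC903 skin. In most Sprr2, Lce3 and Lce1 genes replicate 1 lies highest and replicate 4 lowest. Sprr1a, at the left, stays within 1.05-fold over the 4 libraries.

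Promoter letters were compared because genes of a family moved together. The windows run from 250 bases before to 50 bases after the RefSeq start site (build GRCm38), and 37 of 39 member symbols, counting Lce1d, had one. The 200 bases shown end just before the most upstream of the RefSeq, GENCODE and deposited starts. They are given for the gene of highest mean CPM in Sprr1, Sprr2 and Lce3, and for Lce1c and Lce1m as Lce1 genes with different outcomes. All are written 5′ to 3′ on the strand of the gene. Capitals mark 3 motifs. TGANTCA has the letters of an AP-1 element. The TATA box was searched as TATAAA. The hexamer ATAAAA, added to the search after reading the promoters, overlaps the TATA box wherever a further A follows it.
Sprr1a, chr3:92485896-92486095, minus strand: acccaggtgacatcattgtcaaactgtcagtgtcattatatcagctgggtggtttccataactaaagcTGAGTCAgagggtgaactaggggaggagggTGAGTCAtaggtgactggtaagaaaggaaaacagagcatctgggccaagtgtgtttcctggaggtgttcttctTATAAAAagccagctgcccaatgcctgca
Sprr2d, chr3:92338940-92339139, plus strand: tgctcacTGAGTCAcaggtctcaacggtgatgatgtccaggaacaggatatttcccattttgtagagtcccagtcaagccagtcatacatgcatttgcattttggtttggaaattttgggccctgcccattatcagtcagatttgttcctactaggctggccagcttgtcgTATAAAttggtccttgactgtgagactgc
Lce3c, chr3:92944286-92944485, plus strand: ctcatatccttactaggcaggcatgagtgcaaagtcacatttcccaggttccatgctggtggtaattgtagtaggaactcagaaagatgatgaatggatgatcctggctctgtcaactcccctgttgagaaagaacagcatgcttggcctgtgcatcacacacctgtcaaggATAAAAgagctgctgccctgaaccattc
Lce1c, chr3:92679047-92679246, plus strand: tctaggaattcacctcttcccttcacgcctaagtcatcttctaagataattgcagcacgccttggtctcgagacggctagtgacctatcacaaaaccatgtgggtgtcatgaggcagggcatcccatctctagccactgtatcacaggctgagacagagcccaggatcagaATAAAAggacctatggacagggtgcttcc
Lce1m, chr3:93019062-93019261, minus strand: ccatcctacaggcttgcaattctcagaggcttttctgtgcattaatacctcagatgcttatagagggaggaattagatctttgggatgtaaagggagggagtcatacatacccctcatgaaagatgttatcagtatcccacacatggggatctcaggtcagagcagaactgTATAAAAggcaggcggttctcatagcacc
Sprr1a carries TGAGTCA 2 times and Sprr2d 1 time, and the Lce promoters shown have no such run of letters.

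Over the whole windows and on either strand, TGANTCA was present in both Sprr1 promoters, 7 of 10 Sprr2 promoters, Lor and Ivl, against 7.81% of 32851 promoters. It was in none of the 13 Lce1 and 6 Lce3 promoters. TATAAA stood in both Sprr1, 7 of 10 Sprr2, 2 of 13 Lce1 (Lce1d and Lce1m) and 1 of 6 Lce3 promoters, against 13.6% of all. ATAAAA and TATAAA were also counted on the gene's strand alone, within 36 to 20 bases before the start. There ATAAAA was in 12 of 13 Lce1, 5 of 6 Lce3, 3 of 10 Sprr2 and 1 of 2 Sprr1 promoters (1.60% of all). TATAAA was in 2 of 13, 0 of 6, 7 of 10 and 1 of 2 of them (1.86% of all). The Sprr2a1, Sprr2a2 and Sprr2a3 windows held neither TGANTCA nor TATAAA, although Sprr2a3 rose with the others. CCAAT was in 4 of 10 Sprr2, 2 of 6 Lce3 and none of 13 Lce1 promoters (37.4% of all), and TGACNNNGC, the core of the antioxidant response element, in 1 of 10, 3 of 6 and 1 of 13 (12.4% of all). Direct repeats of GGTTCA or of AGGTCA spaced by 3 bases, forms of the vitamin D response element, matched no member. Each matched only 2 of all 32851 promoters, too few for the lack of a match among members to be informative. Identity was computed on the 250 bases before the start alone. There Lce1m was 51.2% to 55.6% identical to the other Lce1 promoters, whose pairs with each other had a median of 65.2% and a lowest value of 50.5%. Lce1l, which was not called, was 50.5% to 57.1% identical to the others. A motif match is a run of letters only, and the lack of a match covers only the window searched.

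Other genes of cornification were taken from a list of 58 beside the members. Of 55 tested, 30 rose and 4 fell (all genes tested, 21.3% and 20.2%), with a median log2 fold change of 0.67 beside -0.03 over all genes. Only 2 fell without vehicle replicate 4, without MC903 replicate 3 or without MC903 replicate 4. Among structural genes of the same chromosome region and the envelope (9 of 16 rose, 3 fell), Rptn, a fused S100-type envelope protein, rose by 5.90 ± 0.33 from 32.7 ± 8.10 to 1949 ± 772 CPM. Flg2, its filaggrin-type relative, fell by 2.64 on the log2 scale from 458 ± 43.3 to 73.2 ± 13.1 CPM, while Flg, the filaggrin gene, rose by 2.72 ± 0.27 from 372 ± 106 to 2458 ± 631 CPM. Of the crosslinking and processing enzymes, 7 of 9 rose, among them Casp14, a protease of terminal differentiation (3.30 ± 0.20), and Klk7, a protease of shedding (1.95 ± 0.18). The envelope transglutaminases Tgm1 and Tgm3 rose by 1.38 ± 0.14 and 2.07 ± 0.20.

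Desmosome parts built into the envelope rose in 3 of 6 cases, led by Dsc1 (1.71 ± 0.14) and Cdsn (1.68 ± 0.20). Of the lipid enzymes linked to the envelope, 4 of 8 rose, and Sdr9c7 (0.67 ± 0.13) and Cers3 (0.97 ± 0.22) had the smallest p. Of the regulators, 7 of 16 rose and 1, Gata3, fell (-0.44 ± 0.14). These counts stand beside the 21.3% of all genes tested that rose and the 20.2% that fell. Junb and Fosl1, both subunits of AP-1, rose from 10.9 ± 2.66 to 53.8 ± 13.9 CPM (2.30 ± 0.22) and from 1.14 ± 0.230 to 4.29 ± 1.12 CPM (1.90 ± 0.26). Nfe2l2, the regulator that binds antioxidant response elements, rose by 0.70 ± 0.12, and Klf4, a regulator of barrier genes, was at 384 ± 109 and 387 ± 39.1 CPM (0.01 ± 0.20, not called).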

How the data were processed

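Single reads of 50 bases were made from ribosomal RNA-depleted total RNA of whole ear skin, per the labels' protocols. The authors deposited raw counts per Ensembl gene, with CPM and RPKM beside them. STAR 2.0.4b, Subread and featureCounts 1.4.5 are named with mm10 in the submitters' processing notes. How multiply mapped reads were handled, the strand setting and the annotation release are not given in the sources used here. In the deposited tables CPM and RPKM equalled count per total and CPM per kilobase, and were used only for this check. Of 41388 identifiers, 40254 were named by a table of gene symbols and 152 by position (at least 90% overlap with a GENCODE M21 gene).

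The counts went through filterByExpr and TMM normalization. The quasi-likelihood F-test of edgeR 4.0.16 (R 4.3.3) compared the groups with no further term. Benjamini-Hochberg adjustment covered all 16105 tested genes, and the threshold was 0.05. The SE is the size of the log2 fold change over the square root of F. CPM and RPKM in the text are TMM-adjusted, except the detection floor, which was scaled by library totals alone. Exact 95% intervals of count ratios used scipy 1.17.1, and, as PCR reads carry no molecular identifiers, cover counting error only.

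Members and lists were chosen with earlier results of these data known. Values in every library are given for Lor, Ivl, Kprp, Lelp1, Lce6a, Sprr3, Sprr4, both Sprr1 genes, and in the Sprr2, Lce1 and Lce3 families for the 2 most abundant members and the 2 with the smallest p, and for any member called against its family's direction. In each other list, the 2 genes with the smallest p were named. Tgm1, Tgm3, Nfe2l2, Klf4, Gata3, Flg, Cnfn, Krtdap, other members, and the promoters and coding stretches shown were chosen after their values were seen. Protein sequences were not used here. Alternatives covered other normalizations, filters, DESeq2 1.42.0, limma-voom (limma 3.58.1), a block on the replicate number, robust dispersion, thinning and leaving out each library. For the count of all genes called, a fit with 1 summed row for each of the Sprr2, Lce1 and Lce3 families was added. Subtraction of crossed reads was chosen after seeing the data.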

Additional observations from a re-analysis of the deposited data

Results flagged for a closer look

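In 44 groups of 4 values checked (20 named genes less those with too few counts, and 4 family sums, in both treatments), 3 had a library far from the rest by Dixon's test, of which chance gives about 1 in 20. Sprr1a was at 200.4 CPM in vehicle replicate 4, against 124 to 137 CPM in the other vehicle libraries. Lce1e was at 689 CPM in MC903 replicate 1, against 431 to 462 CPM in the other MC903 libraries. Lce3e was at 1.89 CPM in vehicle replicate 1, against 1.14 to 1.25 CPM in the other vehicle libraries.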

How the results depend on the processing

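Over 19 alternatives, 25 to 27 members were called higher and 1 lower, and over 20 the count of all genes called ranged from 5389 (library sizes alone) to 7072 (without MC903 replicate 1). Leaving out each library in turn gave 26 to 27 members higher. Other cornification genes called lower, 4 as reported, were 2 with library sizes alone, with no filter and with the replicate block, and 2 to 6 when libraries were left out. Without its most abundant member, the log2 ratio of the summed Sprr1 level was 5.92 and that of Lce3 6.29. Kprp, reported at 0.04, was at -0.0732 with library sizes alone, -0.0334 with upper quartile factors and -0.0842 to 0.193 when libraries were left out. Sprr4, reported at 0.01, was at -0.0779 with library sizes alone, -0.0680 with upper quartile factors, -0.0019 with no filter, -0.117 with limma-voom, -0.102 with the replicate block and -0.329 to 0.272 when libraries were left out. Lce1c, reported at -0.08, was at -0.214 to 0.0147 when libraries were left out. None of these was called, and the cause was not tested. Sprr2a2 could not be tested under the stricter filter.

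Replicate numbers are shared between groups, but same-numbered libraries did not deviate together (correlations of 0.0568, -0.139, -0.118 and -0.204), so the numbers were not taken as pairs. With the replicate block, 5705 genes were called in place of 6682, with 26 members higher and 1 lower. Sprr2a1, Sprr2a2 and Sprr2k, each under the floor of 3 counts in every vehicle library, have ratios limited by depth.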
